A study of Mus musculus with 14 samples.

Results

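Genes for the plasminogen activators, the cell surface receptor of urokinase, 2 activator inhibitors and the pair that starts and brakes clotting were examined. The samples were mouse fat and cultured brown fat cells. The 7 genes were Plat, Plau, Plaur, Serpine2, Serpinb2, F3 and Tfpi, out of 24421 gene rows in each deposited table. They were picked by gene symbol for the role of the encoded protein, with results of both comparisons already known. No expression value enters that choice directly, but the fold changes and p-values below place each gene among all genes and are a description, not independent support.

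Polyadenylated RNA was sequenced from 14 samples. BAT (brown adipose tissue, which burns fuel to make heat) and WAT (white adipose tissue from the perigonadal depot, which stores fat) gave 4 libraries each, BAT 1 to BAT 4 and WAT 1 to WAT 4. All of these tissues came from C57BL/6N mice, 22 weeks old, kept at ambient temperature and fed 60% of their calories as fat for 14 weeks, so no lean mice are among them. The other 6 libraries came from a single BAT cell line, induced to differentiate with insulin, T3, dexamethasone, IBMX and rosiglitazone. From day 7 these cells received blebbistatin at 100 µM, which blocks the motor activity of class II myosins, or DMSO vehicle for 24 h (3 libraries each). The labels number the replicates and do not say that each was a separate animal or culture, so p-values here rest on sample-to-sample spread that could be technical.

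Plasminogen is a circulating zymogen made mainly by the liver. It is cut to plasmin, the enzyme that dissolves fibrin and opens up the extracellular matrix, by tissue-type plasminogen activator (Plat) or by urokinase (Plau), and urokinase is held on cell surfaces by its receptor (Plaur). Serpins trap the activators, and tissue factor (F3) starts clotting by binding factor VII, a step that tissue factor pathway inhibitor (Tfpi) blocks. In fat, clotting and fibrinolytic factors are best known for their increase in obesity, where macrophages and stromal cells contribute to them.

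The libraries differed in depth. BAT libraries held 1014959 to 2335058 reads in genes and WAT libraries 6859404 to 16091372, whereas blebbistatin libraries held 10920307 to 12978198 and vehicle libraries 10685378 to 14176846. Genes took 19.1% to 42.3% of all mapped reads in BAT, as worked out from signal and RPKM together, against 71.1% to 83.0% in WAT. BAT and WAT columns also carry different library naming series in the file headers, so tissue and library series cannot be told apart. BAT tissue was marked by Ucp1, the uncoupling protein of brown fat, at 12600 to 20110 CPM (reads of a gene relative to all gene reads of its library, after TMM scaling), against 0.136 to 1.55 CPM in WAT. In the cells Ucp1 stood at 8.15, 14.3 and 9.82 CPM with blebbistatin and at 123, 52.5 and 26.1 CPM with vehicle, far under its level in the tissue. Vehicle 1 had the highest Ucp1 of the 6 cell libraries and also the largest share of the ribosomal precursor Rn45s, at 3.45% of gene reads against at most 1.03% in the others.

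In the mm9 coordinates of the deposited tables, Plat (NM_008872) lies on chromosome 8 at 23868194 to 23893320 and Plau (NM_008873) on chromosome 14 at 21655884 to 21662610, both on the plus strand. Plaur (NM_011113) lies on chromosome 7 at 25247519 to 25260892 and F3 (NM_010171) on chromosome 3 at 121426455 to 121437970, also on the plus strand. Serpine2 (NM_009255) lies on the minus strand of chromosome 1 at 79790896 to 79855240 and Serpinb2 (NM_011111) on its plus strand at 109408087 to 109422177. Tfpi (NM_001177319) lies on the minus strand of chromosome 2 at 84280880 to 84316916. Each row counts exons over a whole gene. For Tfpi the 2 kinds of table use different transcripts: exons of 3017 bases behind the scaled counts and of 1481 bases (NM_011576) behind RPKM (reads scaled by exon length and by the mapped reads of the library), so its values on the 2 scales rest on different reads. Serpinb2 differs as well, with 1981 bases behind the scaled counts and 1962 bases (NM_001174170) behind RPKM. By the RPKM spans no other row overlaps any of the 7 genes. Tfpi spans 84273017 to 84314331 there, so the bases beyond 84314331 in its span above were not checked.

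RefSeq promoter windows of GRCm38.p6, from 250 bases before to 50 after a start, were at hand for 5 of the 7 genes. Those of F3 and Plaur are printed because F3 was the gene with the higher level in BAT and Plaur one with a lower level, and both windows hold the AP-1 word TGANTCA, whose matches are in capitals. F3 lies at chr3:121723287-121723586 and Plaur at chr7:24462233-24462532, both on the plus strand and written 5′ to 3′.
F3: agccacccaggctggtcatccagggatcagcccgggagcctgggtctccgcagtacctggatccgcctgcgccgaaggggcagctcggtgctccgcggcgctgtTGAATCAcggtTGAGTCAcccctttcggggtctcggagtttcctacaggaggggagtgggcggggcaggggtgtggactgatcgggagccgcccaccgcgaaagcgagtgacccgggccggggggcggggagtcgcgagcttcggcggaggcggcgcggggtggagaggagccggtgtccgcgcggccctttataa
Plaur: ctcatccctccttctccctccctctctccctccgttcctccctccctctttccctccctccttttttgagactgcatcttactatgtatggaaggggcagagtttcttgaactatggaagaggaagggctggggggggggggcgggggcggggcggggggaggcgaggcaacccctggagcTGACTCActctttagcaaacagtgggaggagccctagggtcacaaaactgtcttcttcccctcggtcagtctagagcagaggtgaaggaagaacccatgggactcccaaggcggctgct

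F3 holds 2 AP-1 words, which begin at -146 and -135 from the start, and Plaur holds 1, which begins at -69. The word TGANTCA, read on both strands, occurs in 7.81% of all 32851 windows of the table. Serpinb2 carries it too, at -94 of its first start, which is -181 of its second. Windows of Serpine2 and Tfpi hold none. The Sp1 word GGGCGG, on either strand, occurs in 35.7% of all windows, and it was found 6 times in Serpine2, 3 times each in Plaur and F3 and 1 time in each of the 2 Tfpi windows; some of the Serpine2 and Plaur matches share bases. The Serpine2 window is 77.7% G or C, against a median of 52.7% over all windows. Neither the TEAD word GGAATG (14.7% of all windows) nor the CRE word TGACGTCA (1.79%) was found in a window of these genes. Such matches describe the letters and say nothing of binding.

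The first comparison set BAT against WAT. Urokinase, its receptor, tissue-type plasminogen activator, Serpine2 and Tfpi were lower in BAT, and tissue factor was higher on the main scale. Urokinase differed most, with a level 10.5-fold lower in BAT. Of the 7 genes 6 had enough reads to be tested: 5 were called lower and 1 higher by limma's empirical Bayes test at an adjusted p under 0.05 (Benjamini-Hochberg over all 12754 genes). Over all genes 62.1% were called, 31.0% lower and 31.1% higher, so a call by itself is common between these tissues. The median log2 fold change (BAT over WAT) was -1.59 over the 6 genes and -0.03 over all genes tested.

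Plau, the urokinase gene, had 38.1, 18.9, 16.4 and 31.7 CPM in BAT 1 to 4, against 262, 260, 253 and 283 CPM in WAT 1 to 4. Every BAT library lay far under every WAT library, and the BAT libraries spread more widely. The log2 fold change was -3.39 (SE 0.23, 95% interval -3.89 to -2.89, limma adjusted p = 1.17e-07), and it ranked 234 from the lowest among the 12754 tested genes. Behind the BAT values stood 15 to 86 reads per library, against 1874 to 4565 in WAT.

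Plaur, the receptor that concentrates urokinase at the cell surface, had 7.09, 4.45, 6.57 and 7.42 CPM in BAT and 27.7, 24.97, 39.6 and 44.2 CPM in WAT. The groups did not overlap, and WAT 3 and WAT 4 were the highest. Its log2 fold change was -2.31 (SE 0.24, limma adjusted p = 3.89e-06). Only 6 to 16 reads per BAT library stood behind it.

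Plat, which encodes the tissue-type activator known from vessel walls, had 11.97, 9.45, 8.76 and 8.09 CPM in BAT, against 32.8, 40.5, 31.7 and 32.6 CPM in WAT. Here too every BAT library lay under every WAT library, and the spread within each tissue was small. The log2 fold change of -1.80 (SE 0.18, 95% interval -2.19 to -1.41, limma adjusted p = 2.91e-06) rested on 8 to 27 reads per BAT library.

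Serpine2, or protease nexin-1, is a serpin of the matrix that inhibits thrombin, urokinase and tissue-type activator. It had 32.4, 34.5, 26.3 and 46.5 CPM in BAT and 63.2, 62.5, 43.7 and 68.8 CPM in WAT. BAT 4 lay above WAT 3, so the groups overlapped, and the log2 fold change was the smallest of the 5 lower ones (-0.77, SE 0.20, limma adjusted p = 0.0043). Serpinb2, a mostly intracellular serpin that inhibits urokinase, was close to undetected. BAT had 0 reads of it among 6956865 (exact 95% Poisson interval 0 to 0.530 CPM before TMM scaling). WAT had 7 among 41082594 (0.170 CPM, interval 0.0685 to 0.351), and both intervals hold counting error only. At this depth no difference was detectable, and the gene was not tested.

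F3, the cell surface starter of clotting, had 54.5, 62.3, 119 and 97.1 CPM in BAT and 44.8, 49.1, 39.6 and 56.9 CPM in WAT. BAT 3 and BAT 4, the libraries with the smallest share of mapped reads in genes, were the highest, and BAT 1 lay under WAT 4. The log2 fold change of 0.74 (SE 0.23, 95% interval 0.24 to 1.24, limma adjusted p = 0.0141) was lost without TMM scaling (0.51, adjusted p = 0.065), without the filter on low counts (0.55, adjusted p = 0.0866) and without WAT 3 (0.62, adjusted p = 0.0517). With BAT 3 and BAT 4 left out, an alternative chosen after seeing the data, it was 0.28 (adjusted p = 0.151). On RPKM, which scales by all mapped reads, F3 was lower in BAT (12.4 ± 1.70 RPKM in BAT and 21.8 ± 3.66 in WAT, SD, n = 4 each; log2 -0.80, limma adjusted p = 0.0183), with no overlap between the groups. RPKM moved the median of all genes by -1.48, to -1.51, and with the RPKM of each library set relative to its own median F3 was again higher in BAT (0.77, adjusted p = 0.0138). In the authors' deposited table its log2 fold change was 0.54 with an adjusted p of 0.0579.

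Tfpi, the inhibitor that shuts down tissue factor, ran the other way, with 10.2, 5.56, 10.95 and 4.72 CPM in BAT against 23.1, 19.8, 16.6 and 20.8 CPM in WAT. The groups did not overlap, and BAT 2 and BAT 4 were the lowest. The log2 fold change was -1.37 (SE 0.27, 95% interval -1.97 to -0.78, limma adjusted p = 8.42e-04), on 7 to 23 reads per BAT library. The calls of Plau, Plaur, Plat, Serpine2 and Tfpi kept their direction and stayed under 0.05 in all 19 alternatives run, RPKM included.

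**Figure D1:**
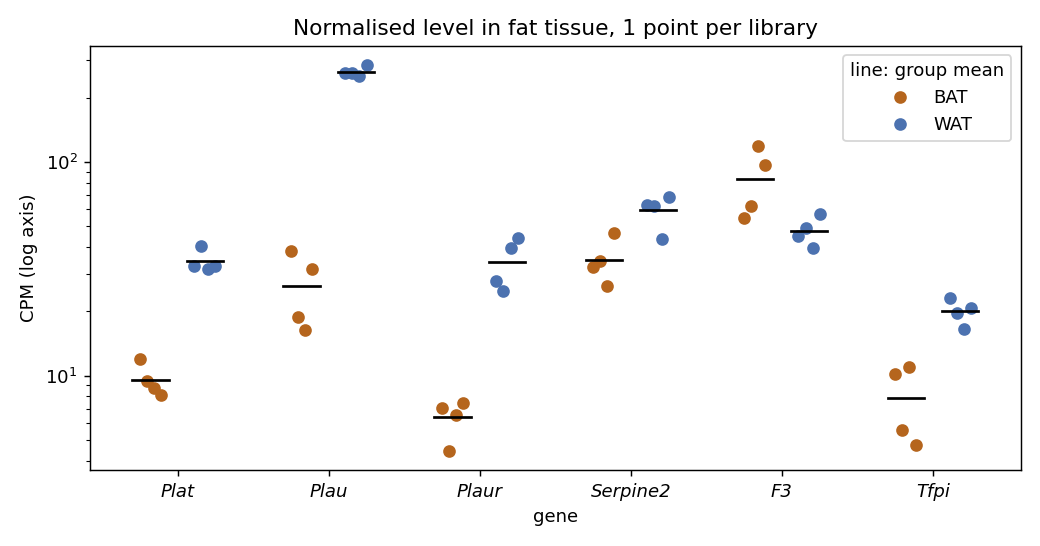
Normalised level (CPM, log axis) of 6 genes in BAT and WAT, with a point for each library and a line at the group mean (n = 4 each); Serpinb2, with 0 reads in BAT, is not drawn. BAT points of Plau lie between 16.4 and 38.1 CPM, under all WAT points (253 to 283 CPM), whereas those of Serpine2 and F3 overlap with WAT.

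The mix of cells differed between the tissues, as their marker genes show. All 12 macrophage markers were called lower in BAT, with a summed level of 629.6 to 1617 CPM in BAT against 11500 to 15380 CPM in WAT and none at 0. Among BAT libraries the sum was 1617, 730.9, 696.3 and 629.6 CPM in BAT 1 to 4. BAT 1 was highest for these markers and for Plau, and BAT 4 was lowest for the markers and second for Plau. With 15 to 86 Plau reads per BAT library, these ranks are a description only. All 10 fibroblast markers were lower as well (1410 to 2345 CPM in BAT and 6068 to 7106 CPM in WAT). Of 12 endothelial markers 11 were higher and none lower (1607 to 1902 CPM in BAT and 442.9 to 556.6 CPM in WAT), but on RPKM 2 were called higher and 1 lower. Endothelium is a known source of Plat and Tfpi, but which cells supplied their RNA here was not tested. All 7 tested mesothelial markers of 10 listed were lower (2.22 to 7.67 CPM in BAT and 31.9 to 105.8 CPM in WAT), and 5 of the 10 had no read in BAT. The tested ones had 0 to 11 reads over all BAT libraries and passed the filter on low counts through WAT. The direction of their calls was thus largely fixed in advance. Skeletal muscle markers were higher, at 1826 to 29710 CPM in BAT with the peak in BAT 4, against 23.5 to 46.1 CPM in WAT. The part of these cells in the values above was not tested, and fewer cells of a type cannot be told apart from less RNA per cell.

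Ratios of RPKM within a library do not depend on how libraries are scaled, and they show unequal differences only. Urokinase exceeded the tissue-type activator in all 8 tissue libraries, but less so in BAT. Plat over Plau was 0.288, 0.459, 0.490 and 0.235 in BAT against 0.115, 0.143, 0.115 and 0.106 in WAT. Serpine2 over the sum of Plat and Plau was 0.751, 1.43, 1.22 and 1.36 in BAT and 0.247, 0.239, 0.177 and 0.251 in WAT. Relative to the activators it can inhibit, Serpine2 RNA was thus higher in every BAT library, although its own CPM was lower. Plau over Plaur was 3.20, 2.53, 1.49 and 2.54 in BAT, under all WAT values of 5.63, 6.21, 3.79 and 3.82. F3 over Tfpi was 8.13, 12.7, 9.61 and 19.0 in BAT against 1.95, 2.98, 3.19 and 3.14 in WAT. The balance of tissue factor to its inhibitor was therefore higher in BAT on any scaling of the libraries, though 6 to 12 reads per BAT library stood behind the Tfpi values on RPKM.

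**Figure D2:**
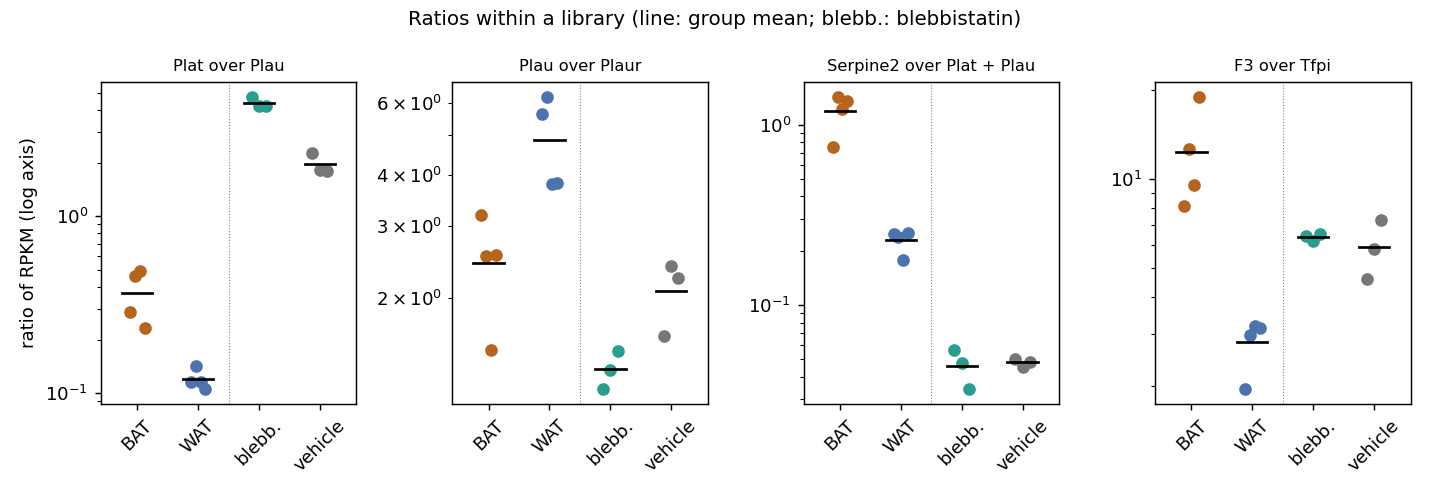
Ratios of RPKM between genes within each library (log axes), with a point for each library and a line at the group mean; BAT and WAT stand left of the dotted line, blebbistatin (blebb.) and vehicle cells right of it. BAT lies above WAT in Plat over Plau, Serpine2 over Plat + Plau and F3 over Tfpi, and below it in Plau over Plaur. In the cells Plat over Plau is higher with blebbistatin, and Plau over Plaur is lower by a narrow margin (1.48 against 1.62). These 2 ratios share Plau.

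By mean RPKM, which allows levels of different genes to be set side by side, F3 led the 7 genes in BAT (12.4), ahead of Serpine2 (5.29), Plau (3.61), Plaur (1.38), Plat (1.18), Tfpi (1.07) and Serpinb2 (0). F3 stood apart from Serpine2, but from Serpine2 down to Tfpi each neighbouring pair overlapped across libraries. In WAT the order was Plau (96.9), Serpine2 (24.8), F3 (21.8), Plaur (21.1), Plat (11.6), Tfpi (7.90) and Serpinb2 (0.068). Plau stood apart at the top, above 95.3% of the tested genes, while Serpine2 overlapped with F3 and F3 with Plaur.

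The second comparison set blebbistatin against vehicle in the brown fat cells. None of the 6 tested genes was called by limma or by edgeR's quasi-likelihood test, at a background of 0.867% of 12808 genes called by limma (0.734% lower, 0.133% higher) and 0.898% by edgeR (0.757% lower, 0.141% higher). Urokinase came closest, with the lowest fold change of the 6. Without adjustment 1 of the 6, Plau, had a p under 0.05 in limma, as did 12.4% of all genes, and DESeq2 on the recovered reads called the same gene, among 3.88% of all genes. The median log2 fold change (blebbistatin over vehicle) was -0.27 over the 6 genes and 0.01 over all genes tested. The 6 values come from the same libraries, and without vehicle 3 those of Plat and F3 were positive (0.14 and 0.11).

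Plau had 12.03, 12.4 and 9.45 CPM with blebbistatin, against 15.1, 31.5 and 38.6 CPM with vehicle. The groups did not overlap, and vehicle 1 lay much nearer to the blebbistatin libraries than vehicle 2 and vehicle 3 did. The log2 fold change was -1.20 (SE 0.32, 95% interval -1.93 to -0.47), with a limma adjusted p of 0.153. DESeq2 gave -1.34 and an adjusted p of 0.002, the quasi-likelihood test of edgeR gave an adjusted p of 0.119, and limma without vehicle 1 gave -1.59 and an adjusted p of 0.0038. In the authors' deposited table the log2 fold change was -1.33 with an adjusted p of 9.44e-04. The call on Plau thus depended on the test and on 1 vehicle library.

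Plaur had 5.98, 5.53 and 3.797 CPM with blebbistatin and 5.57, 7.83 and 10.3 CPM with vehicle (log2 -0.57, 95% interval -1.16 to 0.03, limma adjusted p = 0.43). Plat had 62.0, 56.6 and 43.4 CPM with blebbistatin against 37.5, 62.9 and 75.9 CPM with vehicle (log2 -0.08, 95% interval -0.66 to 0.51, limma adjusted p = 0.942). Both overlapped between the groups, and the interval of Plat leaves room for a change of either sign. Serpine2 had 3.42, 2.69 and 1.48 CPM with blebbistatin and 2.17, 3.56 and 4.62 CPM with vehicle (log2 -0.39, 95% interval -1.15 to 0.37, limma adjusted p = 0.725), on 16 to 50 reads per library. F3 had 166, 157 and 176 CPM with blebbistatin and 123, 193 and 265 CPM with vehicle (log2 -0.15, 95% interval -0.72 to 0.41, limma adjusted p = 0.868). The 3 blebbistatin libraries lay between vehicle 1 and vehicle 2 for F3. Tfpi had the narrowest spread, at 38.9, 37.4 and 40.7 CPM with blebbistatin and 38.0, 46.6 and 46.3 CPM with vehicle (log2 -0.15, 95% interval -0.43 to 0.12, limma adjusted p = 0.687). Serpinb2 had 0 reads among 36205192 with blebbistatin and 3 among 35984971 with vehicle, too few to tell the groups apart.

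Vehicle 1 had the lowest value of the 3 vehicle libraries for each of the 6 genes. It was also the vehicle library with the lowest summed fibroblast and preadipocyte markers, 6731 CPM against 10450 and 11390 CPM in vehicle 2 and vehicle 3, with 5415 to 5969 CPM under blebbistatin. Nearly all of that sum came from the collagen genes Col1a1 and Col3a1 (5855 ± 1434 and 3543 ± 991 CPM with vehicle, SD, n = 3). For adipocyte markers vehicle 1 was the highest vehicle library, at 8560 CPM against 6510 and 5308 CPM, with 4720 to 7086 CPM under blebbistatin. Summed mesothelial markers were at 4.81 to 6.11 CPM with blebbistatin and 17.0 to 21.8 CPM with vehicle, with vehicle 1 again the highest. Most of this sum was Krt19, a keratin (3.27 ± 0.884 CPM with blebbistatin and 11.5 ± 3.09 CPM with vehicle, SD, n = 3 each). Of the 10 listed genes 3 were tested, and Krt19 alone was called (log2 -1.66, limma adjusted p = 0.031). Macrophage markers were at 47.1 to 62.4 CPM with blebbistatin and 19.1 to 60.7 CPM with vehicle, mostly from Gpnmb, and C1qa, C1qb, C1qc and Adgre1 were at 0 reads in both groups. The part of cell state or of vehicle 1 in the Plau values was not tested beyond leaving that library out.

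**Figure D3:**
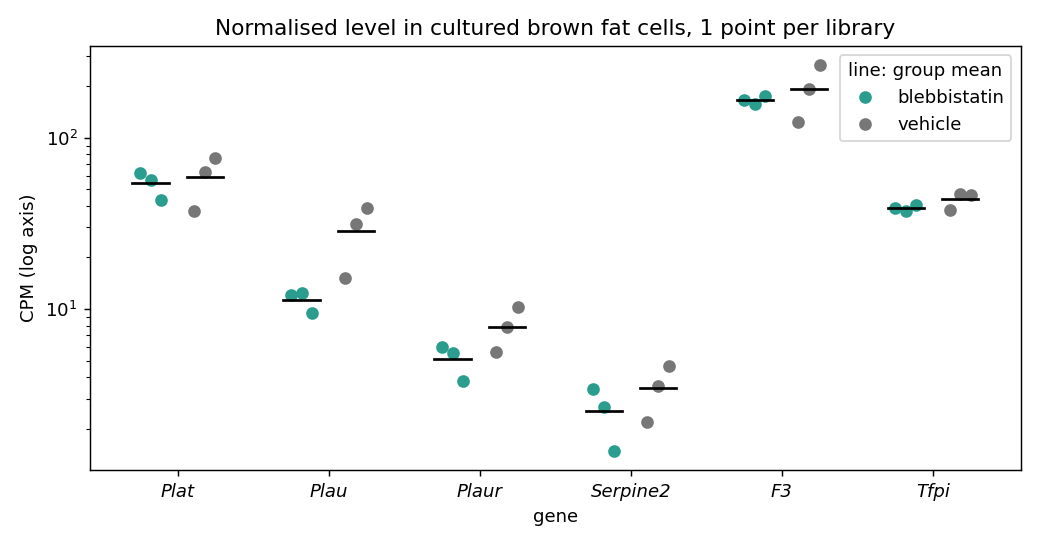
Normalised level (CPM, log axis) of 6 genes in brown fat cells with blebbistatin and with vehicle, with a point for each library and a line at the group mean (n = 3 each). Plau points with blebbistatin lie at 9.45 to 12.4 CPM, under all vehicle points (15.1 to 38.6 CPM), and the lowest vehicle point of each gene is vehicle 1.

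Within libraries, Plat over Plau was 4.73, 4.19 and 4.22 with blebbistatin against 2.28, 1.83 and 1.81 with vehicle. This ratio varied little inside each group, vehicle 1 included, and the groups were far apart. Plau over Plaur was 1.20, 1.34 and 1.48 with blebbistatin and 1.62, 2.39 and 2.24 with vehicle. These 2 ratios share Plau, and how often ratios of other genes separate the groups was not tested. F3 over Tfpi was 6.42, 6.19 and 6.53 with blebbistatin, inside the vehicle values of 4.61, 5.80 and 7.26. Serpine2 over the sum of Plat and Plau was 0.0564, 0.0476 and 0.0342 with blebbistatin and 0.04998, 0.0455 and 0.0486 with vehicle. Both ratios overlapped between the groups.

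In the cells F3 led by mean RPKM, at 71.0 ± 3.84 with blebbistatin and 81.9 ± 33.6 with vehicle (SD, n = 3 each), above 94.2% and 94.9% of the tested genes. Plat (17.2 with blebbistatin and 18.3 with vehicle) and Tfpi (11.1 and 13.5) followed, then Plau (3.91 and 9.67), Plaur (2.98 and 4.48) and Serpine2 (1.01 and 1.33). The order was the same in both groups. Among neighbours, Plau and Plaur overlapped in both, and with vehicle Plat also overlapped with Tfpi and Tfpi with Plau. Plat exceeded Plau in all 6 cell libraries, whereas Plau exceeded Plat in all 4 BAT tissue libraries. Serpine2 stood second in BAT tissue and sixth in the cells. Cells and tissue sit in separately normalised tables, so these orders are given side by side without a test.

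**Figure D4:**
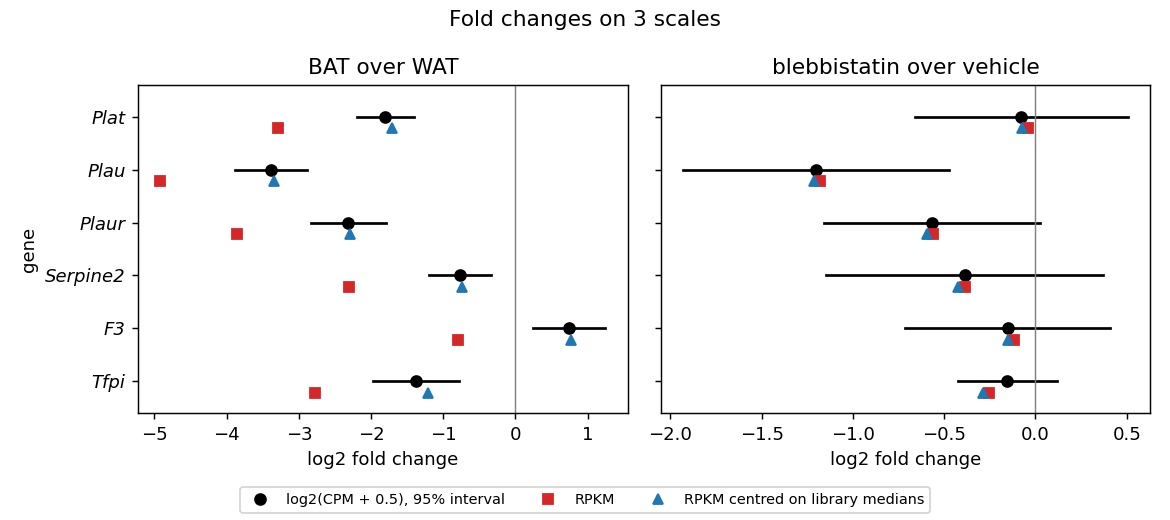
Log2 fold changes of 6 genes, BAT over WAT and blebbistatin over vehicle, from log2(CPM + 0.5) with 95% intervals (circles), from RPKM (squares) and from RPKM centred on library medians (triangles). On RPKM every tissue value shifts left, by about the -1.48 of the median gene, and F3 changes sign, while in the cells the 3 scales lie close together.

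Other genes of the pathway were taken from 6 lists, written like the choice of the 7 genes with results of these data known. Counts refer to the same limma fits and the background of 62.1% in the tissues. On RPKM, where 80.9% of all genes were called (74.3% lower and 6.55% higher in BAT), Serpini1 alone of the tested genes on these lists was called higher, and 3 of 4 fibrinolysis inhibitors, 14 of 15 clearance genes, 5 of 5 coagulation factors, 8 of 8 anticoagulants and 10 of 11 growth factor genes were lower. Plg, the plasminogen gene itself, had 0 reads in BAT and 2 in WAT, and no read in the cells, so RNA for the substrate of both activators was at most a trace. By a floor of 3 counts the 0 in BAT allows up to 0.431 CPM before TMM scaling. The exact 95% Poisson interval for 0 reads in BAT reaches 0.530 CPM. Among 7 tested genes for plasminogen receptors and cofactors 1 was higher in BAT, 3 were lower and 3 were not called (median log2 -0.48), and on RPKM none was higher and 6 were lower (median log2 -1.85). Thbs1, or thrombospondin-1, a matrix protein that activates TGF-beta, was lower (36.0 ± 3.39 CPM in BAT and 189 ± 59.8 CPM in WAT, SD, n = 4 each; log2 -2.32, limma adjusted p = 1.51e-06). Anxa2, a surface docking protein for plasminogen and tissue-type activator, was lower too (log2 -1.46, adjusted p = 7.49e-05). Eno1, a glycolytic enzyme that also binds plasminogen on cell surfaces, was higher (log2 2.10, adjusted p = 4.31e-05), a call lost on RPKM (0.55, adjusted p = 0.204), and a near-identical gene copy in mouse makes its count uncertain.

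Of the other fibrinolysis inhibitors 4 were tested, and 3 were lower in BAT and 1 higher (median log2 -1.94). Serping1, the C1 inhibitor, was lower (127 ± 13.4 CPM in BAT and 603 ± 102 CPM in WAT, SD, n = 4 each; log2 -2.23, limma adjusted p = 1.36e-07), and so was Serpinb6a, an intracellular serpin (log2 -2.42, adjusted p = 1.88e-06). Serpini1, or neuroserpin, an inhibitor of tissue-type activator, was the higher one (9.52 ± 2.33 CPM in BAT and 1.04 ± 0.392 CPM in WAT; log2 2.70, limma adjusted p = 1.66e-05), and it was higher on RPKM as well (1.39). The list thus had members on both sides.

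Among 15 tested clearance receptors and membrane partners of the urokinase receptor, 12 were lower in BAT, 1 was higher and 2 were not called (median log2 -1.66). Itgb2 and Itgam, the chains of the leukocyte integrin that pairs with the urokinase receptor, were the lowest (log2 -4.57 and -4.04, limma adjusted p = 7.23e-08 and 2.43e-08). All macrophage markers were lower in BAT too, and the part of macrophages in these 2 values was not tested. Vldlr, an endocytic receptor that takes up activator and serpin complexes, was higher (log2 1.52, adjusted p = 3.93e-05), but on RPKM it was at -0.03. Of 5 tested coagulation factors 3 were lower and 2 not called (median log2 -1.32). F7, the partner of tissue factor, stood at 4.15 ± 2.78 CPM in BAT and 47.3 ± 13.6 CPM in WAT (SD, n = 4 each; log2 -3.55, limma adjusted p = 1.80e-05), and F10, its substrate, was lower as well (log2 -2.43, adjusted p = 4.24e-05).

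The list of anticoagulants and thrombin receptors had 8 tested genes, of which 5 were lower in BAT, 1 was higher and 2 were not called (median log2 -1.18). Tfpi2, a relative of Tfpi that inhibits plasmin, was lower (log2 -1.74, limma adjusted p = 0.00315), and so was Gas6, a ligand of the TAM receptors (log2 -1.58, adjusted p = 3.38e-05). F2r, the main thrombin receptor, was higher (56.4 ± 9.19 CPM in BAT and 30.8 ± 1.83 CPM in WAT; log2 0.85, limma adjusted p = 3.40e-04), but lower on RPKM (-0.68). Among 11 tested growth factors, latency proteins and receptors 7 were lower, 1 was higher and 3 were not called (median log2 -1.19). Hgf, a growth factor that urokinase can activate, was at 1.74 ± 1.11 CPM in BAT and 15.5 ± 1.58 CPM in WAT (log2 -2.96, limma adjusted p = 1.16e-05), and Tgfb1 was lower too (log2 -2.41, adjusted p = 1.14e-07). Met, the receptor of Hgf, was higher (log2 0.69, adjusted p = 0.00324) but lower on RPKM (-0.78). Because RPKM moves the median gene by -1.48, the higher calls of Eno1, F2r, Met and Vldlr hold only relative to the other genes of a library.

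With blebbistatin none of the tested genes of these 6 lists was called by limma or by edgeR's quasi-likelihood test. In the list of plasminogen receptors and cofactors 3 of 5 tested genes had a lower level at an unadjusted p under 0.05 and were called by DESeq2; they are named after their values were seen. Over all 12808 genes 7.24% were lower at that unadjusted threshold and 5.21% higher, and DESeq2 called 2.80% lower and 1.08% higher. Thbs1 stood at 672 ± 40.1 CPM with blebbistatin and 1813 ± 722 CPM with vehicle (SD, n = 3 each; log2 -1.34, adjusted p = 0.097 by limma and 2.62e-05 by DESeq2). Anxa2 stood at 298 ± 40.2 CPM with blebbistatin and 479.8 ± 54.9 CPM with vehicle (log2 -0.69, adjusted p = 0.0872 by limma and 7.24e-04 by DESeq2). Eno1 stood at 289 ± 46.0 CPM with blebbistatin and 563 ± 176 CPM with vehicle (log2 -0.93, adjusted p = 0.126 by limma and 0.00214 by DESeq2). Itgb3, an integrin chain of the clearance and receptor partner list, had a positive fold change (log2 0.91, adjusted p = 0.184 by limma and 0.0364 by DESeq2). In that list 3 of 12 tested genes had a higher level at an unadjusted limma p under 0.05 and none a lower one: Itgb3 and the endocytic receptors Lrp8 (log2 0.59) and Igf2r (log2 0.33). No tested gene of the other 4 lists was called by DESeq2, and unadjusted limma p-values under 0.05 numbered 1 higher and 2 lower among the fibrinolysis inhibitors, 2 lower among the anticoagulants, 1 lower among the growth factors and 0 among the coagulation factors.

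Genes with the most similar pattern over all 14 libraries were found by Pearson's r on centred log2 RPKM among 11599 genes tested in both experiments. The 14 points fall into 4 groups, so r follows mainly the differences between tissues and cells, and it is given as a description. Plau was most like Nagk (0.990), Metrnl (0.986) and Serpinb6a (0.986), and Plaur most like Wsb2 (0.980), Nagk (0.980) and Mest (0.979). Plau and Plaur were also close to each other (0.979). Plat was most like Lpar1 (0.984), Mrc2 (0.983) and Man2a1 (0.982), and among the 7 genes it was closest to Tfpi (0.870), not to Plau (0.136). Serpine2 was most like Cd93 (0.992), Crispld2 (0.992) and Crip1 (0.991). F3 was most like Hdac7 (0.966), Zfp799 (0.940) and Kcnc2 (0.936), with negative values against Plau (-0.769) and Serpine2 (-0.758). Tfpi was most like Ercc3 (0.967), Map6 (0.955) and Cct2 (0.954).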

How the data were processed

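The submitters' processing notes name STAR, HOMER and edgeR with build mm9, and no version was at hand. Libraries were made from TRIzol RNA with a stranded kit, per the labels' protocols. HOMER counts of exon reads were condensed to 1 row per gene, with no strand option shown, per the file headers. The authors deposited, for each experiment, gene signal (counts multiplied by a single factor in each library so that totals agree), together with the authors' log2 fold changes and the authors' p-values, and a second table of RPKM. From the deposited signal the worth of 1 read was found for each library, and 100% of values up to 1000 reads were whole to within 0.1 read. Inhibitors outside the named genes and lists are not reported here.

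The main test was limma's empirical Bayes test (trend, robust variances) on log2(CPM + 0.5), with CPM from the scaled counts and TMM factors. Low genes were left out with filterByExpr from edgeR, applied to the recovered reads (minimum count 10, minimum total 15). P-values were adjusted by Benjamini-Hochberg over all genes tested, and values under 0.05 were called. Intervals are 95%. The floor for 0 reads was 3 counts over a group's total. Alternatives were edgeR's quasi-likelihood test and DESeq2 on the recovered reads, no TMM, log2(RPKM + 0.1) with and without centring, pseudocounts of 0.1 and 2, no filter, no robust variances, the replicate number as a block and leaving out each library. The software was limma 3.58.1, DESeq2 1.42.0 and edgeR 4.0.16 in R 4.3.3. The fits were tested on simulated data.

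The genes, lists and tests were chosen with earlier results of these data known. Named genes were the 7 genes, at most 2 higher and 2 lower called genes per pathway list and comparison with the largest fold change, and the 3 genes most like each tested gene. Genes named for the cells from the pathway and marker lists, none of which that rule takes, were chosen after their values were seen. Lists of markers and pathway genes got no set test.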

Additional observations from a re-analysis of the deposited data

Results flagged for a closer look

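In the tissues, Plat in WAT was the single value set apart from the other libraries of its group. WAT 2 stood at 40.5 CPM, against 31.7 to 32.8 CPM in the other 3 WAT libraries, a gap that passes Dixon's 95% limit for 4 samples. Chance flags about 1 in 20 groups. The smaller cell groups were not examined by this rule. Without any 1 library Plat kept its lower call in BAT.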

How the results depend on the processing

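Plau, Plaur, Plat, Serpine2 and Tfpi kept their lower calls in BAT under all 19 alternatives, with a highest adjusted p of 0.0121 (Serpine2). F3 held its call under 14 of 19 and reversed on RPKM (-0.80). The number of genes among the 7 called higher in BAT was therefore 0 without TMM, on RPKM, without the filter and with BAT 3 and BAT 4 left out, and 0 to 1 when leaving out single libraries. On RPKM 836 genes were called higher and 9478 lower in BAT.

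In the cells the number of the 7 genes called lower was 1 under DESeq2 and 0 to 1 when leaving out single libraries; the 1 is Plau. Genes called numbered 56 lower without TMM, 138 higher and 359 lower under DESeq2, 4 higher and 26 lower on RPKM, and 7 higher on centred RPKM. Leaving out single libraries gave 0 to 54 higher and 13 to 267 lower, with the most without vehicle 1. Log2 fold changes that turned positive were those of Plat, which ranged from -0.37 (without vehicle 1) to 0.14 (without vehicle 3), and of F3, which ranged from -0.44 (without vehicle 1) to 0.11 (without vehicle 3). The cause was not tested.

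Deviations of libraries with the same replicate number correlated at r -0.04 to 0.07 in the tissues and -0.49 to 0.32 in the cells. Pairs with different numbers ranged as widely in the cells (-0.459 to 0.447). With so few libraries these values cannot show whether samples of the same number were paired. With the replicate block 3815 genes were higher and 3805 lower in BAT, and 0 higher and 30 lower with blebbistatin, where Plau had an adjusted p of 0.326. The block changed no call among the 7 genes. Depth was lowest in BAT, with under 30 reads per library behind Plat, Plaur and Tfpi.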
